A study of Mus musculus with 9 samples.

Results

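The genes described here encode the secreted and membrane-bound proteases that cut the extracellular matrix, together with the inhibitors, receptors and activators that govern them. They were chosen by symbol: every gene of the count table named Mmp, Adamts or Adamtsl followed by a number, the TIMP genes Timp1, Timp2, Timp3 and Timp4, and Plau, Plaur, Plat, Reck, Htra1, Fap and Serpine2. This gave 58 of 55450 genes: 23 matrix metalloproteinase (MMP) genes, 19 ADAMTS genes, 5 ADAMTS-like genes, 4 TIMP genes and 7 others. The rule used symbols alone and no measured value.

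RNA was sequenced from live EYFP+ cells that were sorted from the mammary glands of adult nulliparous female mice, in 9 libraries, 3 for each genotype. Control mice carried lsl-EYFP and K8CreERT2, LATS1/2-KO mice carried LATS1/2f/f with both of these, and LATS1/2-Sox9-KO mice carried Sox9f/f as well. The Keratin 8 promoter drives the Cre, so recombination was aimed at luminal cells, and the EYFP allele marks cells in which Cre was active whether or not the other alleles recombined. All mice, controls included, received 2 mg tamoxifen in corn oil on 5 days, and the cells were sorted 7 days after the last dose. Each library held between 44167762 and 61967651 counted fragments.

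MMPs are zinc endopeptidases that are made as inactive precursors and together degrade collagens, gelatin, laminins and other matrix proteins. ADAMTS proteases cut proteoglycans or trim procollagens, TIMPs and RECK block metalloproteinases, and the plasminogen activators convert plasminogen to plasmin, a serine protease that cuts fibrin and activates several MMPs. In the mammary gland these enzymes are known for remodelling matrix around ducts as they branch and again at involution.

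The targeted genes were read first as a check of the labels. Normalized counts (counts divided by each library's TMM-scaled size and brought to the mean size of the 9 libraries) of Lats1, a kinase of the Hippo pathway, were 5672, 5929 and 5940.4 in the control libraries, 2090.1, 1923 and 2336 in LATS1/2-KO-labelled libraries and 2058, 1844 and 1709 in those labelled LATS1/2-Sox9-KO. Lats2, the second deleted kinase, had 1039, 865 and 1219.7 in control libraries against 1256, 1434 and 1723, and 1957, 1580.4 and 1239.7, so it was not lower in the libraries whose labels give its deletion. Sox9, a transcription factor of luminal progenitors, had 23313, 19948 and 21534 in control libraries, 7205, 9506 and 12433 in those labelled LATS1/2-KO and 8812, 6756 and 6459.8 in those labelled LATS1/2-Sox9-KO. The last 2 groups of Sox9 values overlapped. Counts over whole genes include exons outside the deleted part, so Lats2 and Sox9 do not check the labels, and the groups are called by their labels below. The labelled lineage was checked against its markers: Krt18 was the most abundant of 11 luminal markers in every library, and no luminal marker was at or under 3 counts in any library. Against control, 1 of the 11 was called higher and 4 lower in LATS1/2-KO-labelled libraries, and 3 higher and 6 lower in those labelled LATS1/2-Sox9-KO, beside 17.1% and 17.5%, and 17.8% and 19.6%, of all tested genes. The keratin Krt7 rose from a mean of 33832 normalized counts to 172504 and 301736, and Krt18 and Krt8 were called higher with the LATS1/2-Sox9-KO label (log2 fold change 1.53 and 1.26). The hormone receptor genes fell: Pgr from 22685 to 379 and 34.7, Prlr from 176300.0 to 6303 and 2238, and Esr1 from 9731 to 862 and 764. Of 10 myoepithelial markers, 4 were called higher and 3 lower in LATS1/2-KO-labelled libraries (4 and 4 in those labelled LATS1/2-Sox9-KO), against the same shares of all tested genes: Krt14 rose from a mean of 672 to 177575 normalized counts and Trp63, which defines basal cells, fell from 1553 to 54.9. The part of myoepithelial cells in the values below was not tested.

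Of the 58 genes, 49 passed the filter on low counts and were tested, and 9 did not (Adamtsl2, Mmp1a, Mmp1b, Mmp8, Adamts13, Adamts19, Mmp28, Mmp27 and Mmp20). A gene was called where the quasi-likelihood test of edgeR gave a Benjamini-Hochberg adjusted p of at most 0.05 over all 19357 tested genes and the fold change was over 2. Between LATS1/2-KO-labelled libraries and control, 25 of the 49 genes were called higher (51.0%) and 6 lower (12.2%), where 17.1% of all tested genes were called higher and 17.5% lower. Their median log2 fold change was 1.62, and that of all tested genes was 0.04. Between LATS1/2-Sox9-KO-labelled libraries and control, 25 genes were called higher (51.0%) and 9 lower (18.4%), against 17.8% and 19.6% of all tested genes. Between LATS1/2-Sox9-KO-labelled libraries and LATS1/2-KO, 1 gene was called higher and 4 lower, against 1.55% and 2.16% of all tested genes.

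The filter bears on these counts. There were 7 tested genes with under 10 counts in every control library (Mmp7, Mmp10, Mmp12, Mmp24, Adamts14, Adamts16 and Adamts20), which passed through the other libraries and so had to differ, and 18 of the 25 genes called higher in LATS1/2-KO-labelled libraries were outside this group, where the median log2 fold change of the 42 genes was 1.011. In LATS1/2-Sox9-KO-labelled libraries, 18 of the 42 were called higher and 9 lower, with a median of 0.59 against 1.09 over all 49. These 42 genes are not free of the filter. Adamts5, Mmp3, Mmp9 and Mmp13, called higher with both labels, had under 10 counts in some control libraries, at lowest 5, 0, 5 and 9. Adamtsl5, called higher with the LATS1/2-Sox9-KO label, had a lowest count of 1. With at least 10 counts in every library, 14 of 28 genes were called higher with the LATS1/2-KO label (2308 of 14723 in all). For the LATS1/2-Sox9-KO label it was 12 (2452 in all). The comparisons with control share the same 3 control libraries. The labels do not say that libraries came from separate mice, so p-values measure only the spread between these libraries, and an exact permutation test of 3 against 3 cannot go below p = 0.1. In sorted bulk samples, fewer cells of a type and less RNA per cell cannot be told apart.

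**Figure D1:**
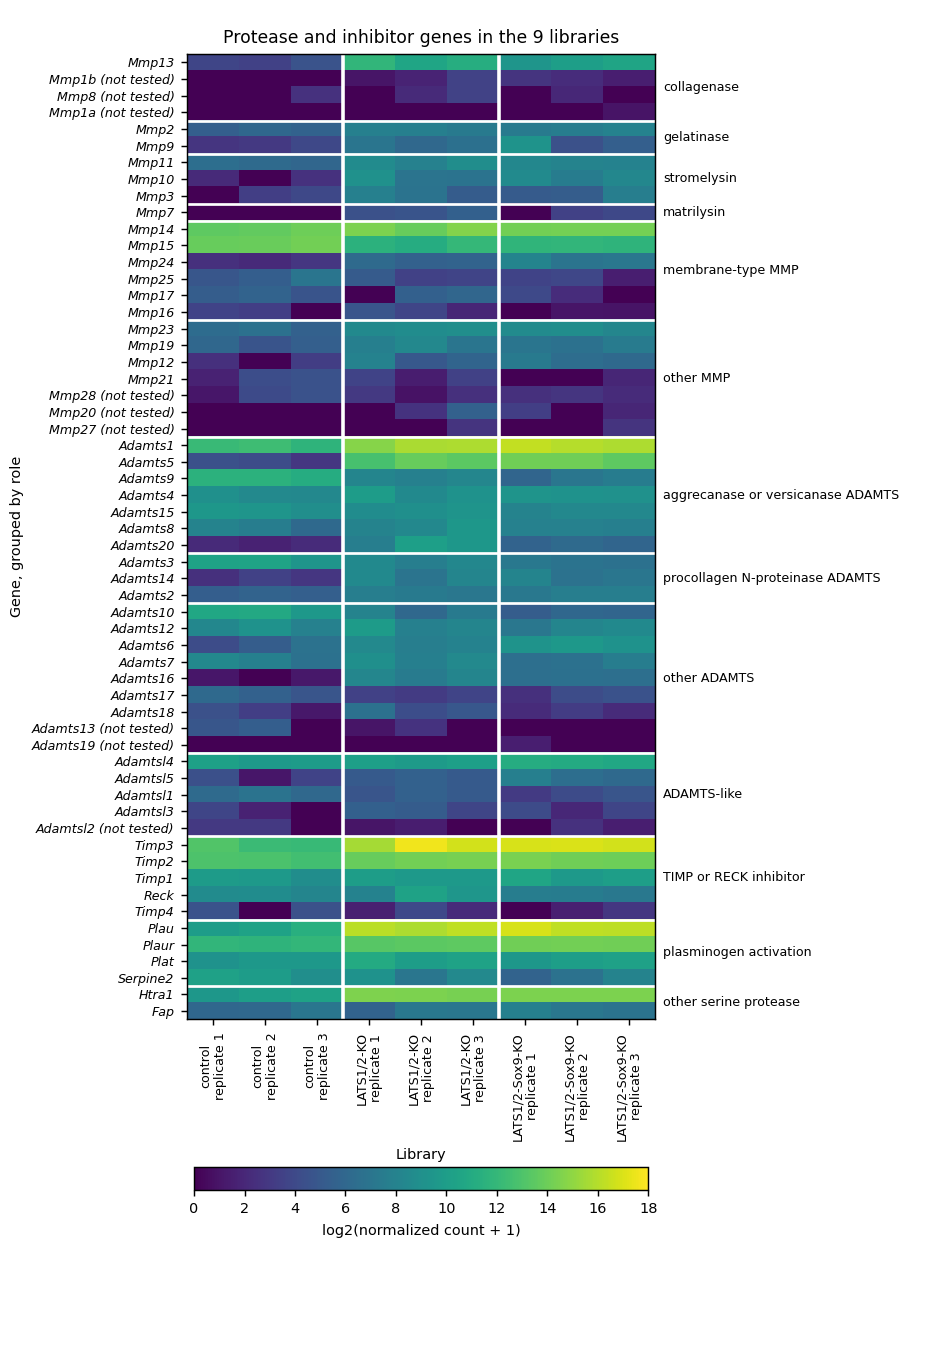
Heat map of log2(normalized count + 1) for the 58 genes (rows, grouped by role, the highest mean of each role on top) in the 9 libraries (columns, 3 per genotype); genes marked as not tested were under the filter on low counts. Plau, Timp3, Adamts1, Adamts5 and Htra1 changed from darker to brighter between the control columns and the others, and Mmp15, Adamts9 and Adamts10 went the other way.

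Which genes carried most of the RNA differed between the genotypes. On a scale of TMM-scaled FPKM (fragments per kilobase of exon, scaled to library size), which allows genes to be compared, the highest levels in control libraries were those of Mmp15 at 54.4 ± 7.24 (SD, n = 3), Mmp14 at 43.1 ± 7.11, Timp2 at 34.2 ± 5.43, Plaur at 26.0 ± 2.21 and Adamts1 at 15.8 ± 3.70. Mmp15 was above Mmp14 in each control library, although their ranges over the libraries overlapped. The range of Adamts1 overlapped with those of Timp1, Timp3 and Plau. Timp1 and Timp3 lay above it in control replicate 1 (19.24 and 19.79 against 16.22), and Plau in control replicate 3 (20.3 against 11.9). In LATS1/2-KO-labelled libraries the order on the same scale was Plau at 546 ± 99.2, Timp3 at 272 ± 173, Adamts1 at 159 ± 54.0, Htra1 at 142 ± 8.25 and Timp2 at 85.0 ± 13.2. Plau led in replicates 1 and 3 (568.5 and 631.9), while in replicate 2 it was just below Timp3 (437.5 against 455.2). The ranges of Timp3, Adamts1 and Htra1 overlapped. Timp2 overlapped with Plaur, which lay above it in replicate 1 (73.8 against 70.0). Plau at 723 ± 197, Timp3 at 276 ± 23.4, Adamts1 at 241 ± 50.9, Htra1 at 145 ± 1.02 and Plaur at 127 ± 3.06 led LATS1/2-Sox9-KO-labelled libraries. The ranges of Timp3 and Adamts1 overlapped there, with Adamts1 (295.5) above Timp3 (282.2) in replicate 1.

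Summed over the 23 genes, the per-length level of the MMPs overlapped between the 3 genotypes, at 99.98 ± 14.48 in control libraries, 107 ± 26.8 in those labelled LATS1/2-KO and 92.3 ± 2.42 in those labelled LATS1/2-Sox9-KO (SD, n = 3 each). The most abundant member changed from Mmp15, with 53.9 to 55.4% of the sum in the control libraries, to Mmp14, with 55.3 to 66.5% in the other 6. The 4 TIMP genes summed to 63.5 ± 14.4, 376 ± 180.0 and 389 ± 32.5 on the same scale, with Timp2 as the leading gene in each control library and Timp3 in each of the others. The ratio of the MMP sum to the TIMP sum was 1.16, 1.44 and 2.42 in the control libraries, 0.608, 0.136 and 0.337 in LATS1/2-KO-labelled libraries and 0.217, 0.230 and 0.269 in those labelled LATS1/2-Sox9-KO, so the control libraries did not overlap with the others. The 19 ADAMTS genes summed to 31.5 ± 8.10, 191 ± 58.0 and 276 ± 55.1, and Adamts1 alone made up 46.8 to 53.3% of the sum in control libraries and 78.2 to 88.6% in the others. These sums describe RNA and were not tested.

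**Figure D2:**
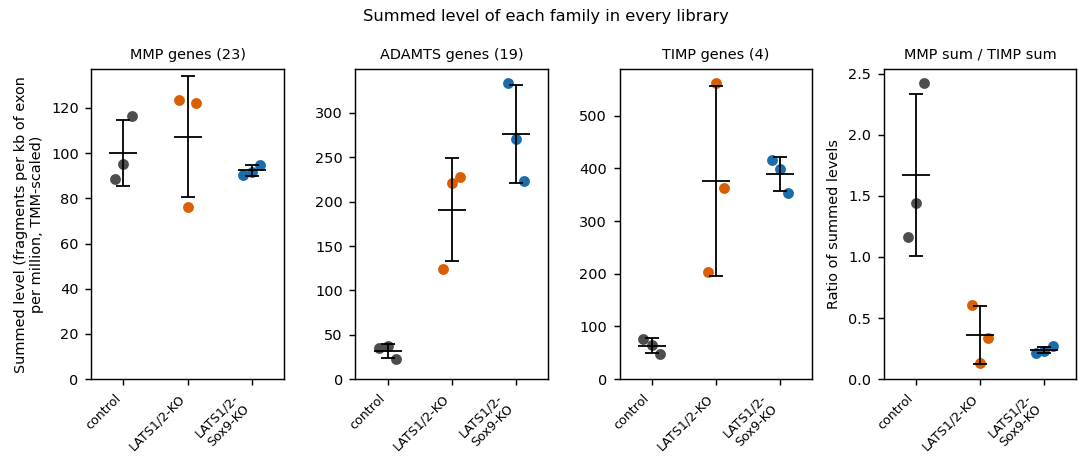
Summed per-length level (vertical axis, TMM-scaled FPKM) of the MMP, ADAMTS and TIMP genes, and the ratio of the MMP sum to the TIMP sum, in each library (points) with the mean and SD of each genotype (black lines, n = 3). The MMP sums of the genotypes overlap, while the ADAMTS and TIMP sums of the 3 control libraries lie below those of the other 6, and the ratio in the control libraries lies above.

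Of the 17 tested MMP genes, 11 were called higher and 1 lower in LATS1/2-KO-labelled libraries, where 17.1% of all tested genes were called higher and 17.5% lower. Without Mmp7, Mmp10, Mmp12 and Mmp24, which passed the filter only through libraries other than control, the counts were 7 and 1 of 13, with a median log2 fold change of 1.96. With the LATS1/2-Sox9-KO label the counts were 11 and 3, or 7 and 3 without those 4 genes (17.8% and 19.6% of all tested genes). Mmp3, Mmp9 and Mmp13 were among the 7 with both labels and had under 10 counts in some control libraries. The counts of 7 are therefore not free of the filter. Mmp13, the collagenase that opens fibrillar collagens in rodents (chr9:7272514-7283331, plus strand, GRCm38), had normalized counts of 12.8, 10.2 and 23.6 in the control libraries, 3722, 1556 and 2397 in those labelled LATS1/2-KO and 669, 1088 and 1472 in those labelled LATS1/2-Sox9-KO. Its log2 fold change against control was 7.37 ± 0.51 (standard error; edgeR adjusted p = 3.88e-06) in LATS1/2-KO-labelled libraries and 6.12 ± 0.49 (edgeR adjusted p = 5.77e-06) in those labelled LATS1/2-Sox9-KO. The control libraries lay far below all others, and each library labelled LATS1/2-Sox9-KO lay below each one labelled LATS1/2-KO, a difference that was not called (-1.25 ± 0.36, edgeR adjusted p = 0.0713), although it was called without LATS1/2-KO replicate 2 (-1.48, edgeR adjusted p = 0.0475). The other collagenases, Mmp1a, Mmp1b and Mmp8, were under the filter, with at most 12 counts in any library.

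The stromelysins, which cut laminins, fibronectin and proteoglycans and activate other MMPs, were all called higher. Mmp10 had normalized counts of 3.48, 0 and 4.98 in control libraries, 545, 123 and 114 in those labelled LATS1/2-KO and 382, 189 and 324 in those labelled LATS1/2-Sox9-KO. With 7 counts in the control group, its ratio to control was 90.4 (95% counting interval 43.7 to 226) and 110 (53.0 to 274), and the fitted log2 fold changes were 6.49 ± 0.92 and 6.69 ± 0.93 (edgeR adjusted p = 0.000232 and 0.000168). The first of these was 5.37 without LATS1/2-KO replicate 1. The 2 changes were 5.90 and 6.11 without control replicate 2, and 7.12 and 7.35 without control replicate 3. Mmp3 had 0, 9.07 and 13.7, then 233, 114 and 37.4, then 35.3, 37.9 and 203, with 1 library of each deletion label well above its partners. Its log2 fold changes were 4.06 ± 1.10 and 3.59 ± 1.09 (edgeR adjusted p = 0.0102 and 0.017). They were 4.75 and 4.31 without control replicate 3, the first was 3.31 without LATS1/2-KO replicate 1, and without LATS1/2-Sox9-KO replicate 3 the second was 2.27 and was not called (edgeR adjusted p = 0.0869). Mmp11, which is processed inside the cell by furin, was at 90.5, 72.6 and 61.0 in control libraries and between 242 and 441 in the other 6, a rise of 2.30 ± 0.29 and 1.92 ± 0.28 on the log2 scale (edgeR adjusted p = 0.000102 and 0.000258).

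The gelatinases Mmp2 and Mmp9 degrade denatured collagen and basement membrane collagen. Mmp2 was at 42.9, 64.6 and 49.8 normalized counts in control libraries and between 161 and 255 in the other 6 (log2 fold change 1.96 ± 0.29 and 1.95 ± 0.29, edgeR adjusted p = 0.000274 and 0.000247). Mmp9 was at 5.80, 6.80 and 13.7 in control libraries, 128, 65.2 and 97.6 in those labelled LATS1/2-KO and 615, 20.9 and 41.9 in those labelled LATS1/2-Sox9-KO. LATS1/2-Sox9-KO replicate 1 alone set the size of the last change, 4.68 ± 1.22 (edgeR adjusted p = 0.00771), which was 1.86 (edgeR adjusted p = 0.0197) without it. The Mmp9 change of 3.46 ± 1.19 in LATS1/2-KO-labelled libraries (edgeR adjusted p = 0.0306) lost its call when any of 5 of the 9 libraries was left out, with adjusted p up to 0.0914.

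Mmp12, the elastase known from macrophages, and the matrilysin Mmp7 were also near the floor in controls. Normalized counts of Mmp12 were 4.64, 0 and 8.71 in control libraries, 251, 30.5 and 53.8 in those labelled LATS1/2-KO and 172, 83.7 and 69.2 in those labelled LATS1/2-Sox9-KO (log2 fold change 4.63 ± 1.05 and 4.59 ± 1.05, edgeR adjusted p = 0.00384 and 0.00373). The first change was 3.24 without LATS1/2-KO replicate 1, and leaving out control replicate 2 or 3 gave 4.04 or 5.51 for it and 4.001 or 5.49 for the second. Of 10 macrophage markers, 4 were called higher and 0 lower in LATS1/2-KO-labelled libraries (6 and 0 in those labelled LATS1/2-Sox9-KO). Of all tested genes, 17.1% and 17.8% were called higher. The summed normalized counts of the list were 1174, 822 and 798, then 5130, 3407 and 2245, then 3930, 3965 and 5567. Csf1r, the most abundant gene in the last 6, went from a mean of 158 to 2310 and 3238. Lyz2 or Cd68 was the most abundant in the control libraries. Not all markers rose: Cd68 had means of 403, 312 and 310, and Itgam 35.7, 15.9 and 39.4. Fcgr1 was at 0 in control replicates 1 and 2. Adgre1, which defines macrophages, was at 5.80, 1.13 and 19.9, then 65.2, 29.65 and 6.38, then 51.1, 33.9 and 88.35. Ptprc, the leukocyte gene CD45, was at 40.6, 55.6 and 17.4, then 166, 34.7 and 10.9, then 84.5, 29.9 and 107 normalized counts. The groups of Ptprc overlapped, while Adgre1 overlapped between control and LATS1/2-KO labels but lay above all control libraries with the LATS1/2-Sox9-KO label. The part of these cells in the Mmp12 values was not tested. Mmp7 had 0 counts in all control libraries and 21.1, 24.6 and 45.6 normalized counts in LATS1/2-KO-labelled libraries, at least 25.9-fold higher with a floor of 3 counts over the group, and 0, 9.96 and 13.7 in those labelled LATS1/2-Sox9-KO, where 1 library was at 0 and the call was lost when any of 5 libraries was left out (edgeR adjusted p from 0.0274 with all libraries up to 0.0705).

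Mmp10, Mmp12, Mmp13, Mmp3 and Mmp7 are neighbours. With Mmp1b, Mmp1a, Mmp8, Mmp27 and Mmp20 they form a run of 10 MMP genes within 427 kb (chr9:7272514-7699585, GRCm38). All 5 tested genes of this run were called higher in LATS1/2-KO-labelled libraries, and 6 of the 12 tested MMP genes outside it were. The first count was largely set by the filter, since Mmp7, Mmp10 and Mmp12 passed it only through libraries other than control. Mmp3, with 0, 8 and 11 counts in control libraries, also relied on the other libraries to pass. The other 5 genes of the run did not pass, so nothing is read from that count. Mmp20, the enamel protease, was under the filter, with 0 counts in all control libraries and 58 over LATS1/2-KO-labelled libraries, at least 15.0-fold higher with a floor of 3 counts over the group, most of it in replicate 3. Mean normalized counts along the run were thus high at its Mmp13 end and at Mmp10 and low at Mmp1a, Mmp8 and Mmp27.

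**Figure D3:**
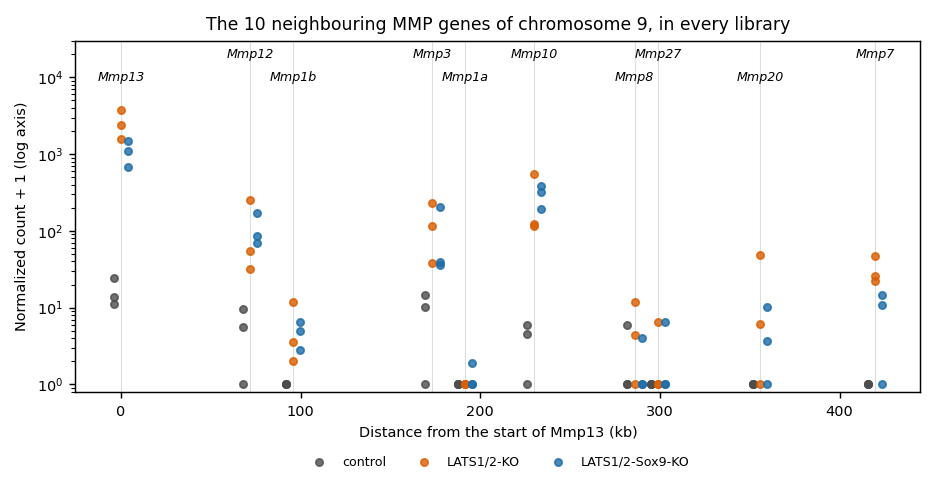
Normalized count + 1 (vertical log axis) of the 10 neighbouring MMP genes of chromosome 9 against the distance of each gene's start from that of Mmp13 (horizontal axis, kb), 1 point per library coloured by genotype. Mmp13, Mmp12, Mmp3 and Mmp10 lie higher in the 6 libraries labelled LATS1/2-KO or LATS1/2-Sox9-KO than in the 3 control libraries, while Mmp1a, Mmp8 and Mmp27 stay near the bottom of the axis.

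Promoters are shown because these genes are neighbours of 1 family. The promoter table (RefSeq, GRCm38.p6) held 40 of the 58 genes, and the 250 bases before each start were searched on both strands for TGANTCA (the AP-1 element, which reads the same on both strands), GGAATG (TEAD) and ACAATG (SOX). AP-1 was found in 8 of the 10 genes of the run and in 1 of the 30 other members of the set (Plaur), against 7.82% of all 27025 genes in the table. TEAD was found in 3 of the 40 members (7.50%; 14.4% of all genes) and SOX in 5 (12.5%; 12.2%). A match is a string of letters and not a shown binding site. A gene was counted where any of its starts in the table had a match. Mmp12 and Mmp7 each had a second start with no match, and the match of Mmp12 lay before a start 2993 bases inside the gene, not before the first start. For 31 of the 43 starts of these genes, the bases shortly after the start lay in a GENCODE M21 transcript of the gene. The AP-1 matches of the 5 tested genes of the run lay between 35 and 63 bases before the start in question. Each is printed 5′ to 3′ along the gene with 10 bases on each side and the match in capitals, at chr9:7272469-7272495 for Mmp13, chr9:7347320-7347346 for Mmp12, chr9:7445766-7445792 for Mmp3, chr9:7502269-7502295 for Mmp10 and chr9:7692017-7692043 for Mmp7, all on the plus strand:
Mmp13: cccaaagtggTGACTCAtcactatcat
Mmp12: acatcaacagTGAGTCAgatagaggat
Mmp3: gaagcaattaTGAGTCAgttttcgggt
Mmp10: agcacccatgTGAGTCAtgcttagtga
Mmp7: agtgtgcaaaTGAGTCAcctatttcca

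The whole 250 bases are given for the 4 genes of the table with the largest called rise and a mean of at least 50 normalized counts, as an example of promoters with and without these strings. Mmp13 (chr9:7272264-7272513, plus strand) and Mmp10 (chr9:7502092-7502341, plus strand) hold the AP-1 string, in capitals. Adamts20 (chr15:94404351-94404600, minus strand) and Adamts14 (chr10:61273420-61273669, minus strand) hold none of the 3, so they have no capitals. The start of Adamts20 in the table lies 61068 bases inside the GENCODE M21 gene, so its sequence is not that before the first exon of the gene:
Mmp13: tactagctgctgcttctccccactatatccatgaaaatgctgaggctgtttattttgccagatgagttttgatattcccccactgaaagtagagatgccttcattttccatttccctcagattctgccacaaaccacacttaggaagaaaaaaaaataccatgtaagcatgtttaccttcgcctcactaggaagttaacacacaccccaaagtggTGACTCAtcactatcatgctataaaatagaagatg
Mmp10: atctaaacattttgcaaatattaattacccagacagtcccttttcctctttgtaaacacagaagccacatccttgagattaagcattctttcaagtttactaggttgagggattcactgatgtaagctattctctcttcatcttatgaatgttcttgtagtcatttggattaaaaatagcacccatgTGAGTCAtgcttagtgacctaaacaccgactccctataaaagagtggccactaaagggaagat
Adamts20: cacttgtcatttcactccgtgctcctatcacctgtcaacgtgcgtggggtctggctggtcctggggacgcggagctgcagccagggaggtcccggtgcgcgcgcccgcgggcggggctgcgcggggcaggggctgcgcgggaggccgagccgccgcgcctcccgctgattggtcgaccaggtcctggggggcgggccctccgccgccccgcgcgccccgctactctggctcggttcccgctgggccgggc
Adamts14: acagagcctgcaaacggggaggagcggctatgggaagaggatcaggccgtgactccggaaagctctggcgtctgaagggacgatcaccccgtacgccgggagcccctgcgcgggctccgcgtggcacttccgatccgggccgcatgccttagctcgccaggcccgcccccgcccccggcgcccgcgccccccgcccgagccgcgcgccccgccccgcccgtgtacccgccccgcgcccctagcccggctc

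The membrane-type MMPs, which are anchored at the cell surface and cut matrix next to it, did not move in 1 direction. Mmp14, which activates the Mmp2 precursor, had 11960.5, 13137 and 16366 normalized counts in control libraries, 21869.8, 14692 and 25338 in those labelled LATS1/2-KO and 18246, 19584 and 19102 in those labelled LATS1/2-Sox9-KO. The groups of control and LATS1/2-KO labels overlapped, and the log2 fold change of 0.58 ± 0.19 (edgeR adjusted p = 0.025) was under the 2-fold limit. Mmp15 fell: its counts were 14274, 14957 and 18212, then 3087, 2277 and 4100.5, then 3521, 3677 and 3386, and the lowest control library lay above the highest of the others. The change was -2.33 ± 0.20 (edgeR adjusted p = 1.11e-05) and -2.16 ± 0.20 (edgeR adjusted p = 1.18e-05). Mmp24, known from the nervous system, was at 4.64, 3.40 and 6.22 in control libraries, 75.2, 48.3 and 52.0 in those labelled LATS1/2-KO and 282, 123 and 138 in those labelled LATS1/2-Sox9-KO (log2 fold change against control 3.59 ± 0.49 and 5.22 ± 0.50, edgeR adjusted p = 0.000171 and 1.57e-05). BC029722 on the opposite strand shares 13.6% of the exon bases of Mmp24, and the part of its reads was not tested. Mmp25, a protease known from leukocytes, was at 26.7, 39.7 and 127 in control libraries and between 1.82 and 34.1 in the others. It was called lower in LATS1/2-Sox9-KO-labelled libraries (-2.89 ± 0.85, edgeR adjusted p = 0.0148), but without control replicate 3 the change was -1.93 and not called (edgeR adjusted p = 0.0822). The same comparison in LATS1/2-KO-labelled libraries gave -1.78 ± 0.80 (edgeR adjusted p = 0.0832), or -0.85 without control replicate 3 and -2.53, which was called (edgeR adjusted p = 0.0363), without LATS1/2-KO replicate 1. Mmp16 and Mmp17, with at most 26.1 and 59.3 normalized counts in any library, were not called in any comparison.

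Of the other MMPs, Mmp23 and Mmp19 were called higher with both deletion labels. Mmp23, whose domain order departs from that of other MMPs, was at 81.2, 104 and 47.3 normalized counts in control libraries and between 313 and 486 in the other 6 (log2 fold change 2.47 ± 0.30 and 2.33 ± 0.30, edgeR adjusted p = 8.75e-05 and 0.000102). Mmp19 was at 63.8, 24.9 and 42.3 in control libraries and between 102 and 339.8 in the others (2.37 ± 0.46 and 1.64 ± 0.46, edgeR adjusted p = 0.00164 and 0.0108), and 28.3% of its exon bases lie under genes on the opposite strand. Mmp21 was called lower in LATS1/2-Sox9-KO-labelled libraries, with 3 counts against 36 in the control group, a ratio of 15.0 (95% counting interval 4.73 to 76.0; edgeR adjusted p = 0.0291). Its groups overlapped, and the call was lost when any of 4 libraries was left out (adjusted p up to 0.0986). All 3 counts with the LATS1/2-Sox9-KO label were in replicate 3. The fitted log2 fold change of -3.76 was -6.83 without that library, a value that depends on the fit since the group was then at 0 counts.

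Of the 17 tested ADAMTS genes, 8 were called higher and 4 lower in LATS1/2-KO-labelled libraries (7 and 4 in those labelled LATS1/2-Sox9-KO). Of all tested genes, 17.1% and 17.8% were called higher and 17.5% and 19.6% lower, so the 4 lower genes were not far from the background. Adamts14, Adamts16 and Adamts20 passed the filter only through libraries other than control. Without them, 5 of 14 were called higher and 4 lower with the LATS1/2-KO label (median log2 fold change 0.67). With the LATS1/2-Sox9-KO label, 4 were called higher and 4 lower (median -0.62). Adamts5, with control counts of 18, 15 and 5, was called higher with both, so these counts are not free of the filter. Adamts5, an aggrecanase that cleaves aggrecan and versican (chr16:85856173-85901828, minus strand), had 20.9, 17.0 and 6.22 normalized counts in control libraries, 6998, 14150.1 and 11249.9 in those labelled LATS1/2-KO and 17313, 17188 and 12014 in those labelled LATS1/2-Sox9-KO. Its log2 fold change was 9.49 ± 0.43 (edgeR adjusted p = 5.47e-07) and 10.01 ± 0.43 (edgeR adjusted p = 3.32e-07). No control library came near the lowest library with a deletion label. Adamts1, its neighbour 53.1 kb away (chr16:85793827-85803113, minus strand), cuts the same substrates and was already expressed in control libraries, at 4630.2, 5493 and 3393. It rose to 27644, 53130.1 and 55426 in LATS1/2-KO-labelled libraries and 84322, 66306 and 55556 in those labelled LATS1/2-Sox9-KO (3.33 ± 0.30 and 3.93 ± 0.31 on the log2 scale, edgeR adjusted p = 1.47e-05 and 4.99e-06). Each library labelled LATS1/2-Sox9-KO was above each one labelled LATS1/2-KO for Adamts1, by 0.60 ± 0.27, which was not called (edgeR adjusted p = 0.231).

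Adamts20, a versican-cleaving protease known from melanoblast migration, was at 3.48, 2.27 and 3.73 in control libraries, 209, 1162 and 742 in those labelled LATS1/2-KO and 51.1, 73.7 and 57.4 in those labelled LATS1/2-Sox9-KO. With 8 counts in the control group the ratio was 233 (95% counting interval 118 to 540.0) and 19.2 (9.57 to 45.2). The 3 groups did not overlap, with LATS1/2-KO-labelled libraries highest. Adamts9, another versican-cleaving member, went down: 3027, 3046 and 2246, then 297, 232 and 306, then 58.5, 132 and 185 (-3.32 ± 0.35 and -4.47 ± 0.37, edgeR adjusted p = 3.78e-05 and 7.12e-06). The control libraries lay above all others. Genes on the opposite strand share 12.0% of the exon bases of Adamts9. Adamts8 was called higher in LATS1/2-KO-labelled libraries at 1.35 ± 0.48 (edgeR adjusted p = 0.037), with groups that overlapped. That call was lost when any of 6 libraries was left out (adjusted p up to 0.182) and with a replicate block (1.35, edgeR adjusted p = 0.0772). Adamts4, the second classic aggrecanase, and Adamts15 were not called in any comparison: Adamts4 was at 532, 355 and 341 normalized counts in control libraries and between 376 and 971 in the others, and Adamts15 at 720.3, 666 and 465 and between 269 and 631. Adamts15 against control in LATS1/2-Sox9-KO-labelled libraries was at a log2 fold change of -0.98 ± 0.22, at the edge of the 2-fold limit (edgeR adjusted p = 0.00366), and passed it with DESeq2 (-1.003, adjusted p = 4.6e-05) and without control replicate 3 (-1.14) or LATS1/2-Sox9-KO replicate 3 (-1.03).

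The ADAMTS members that trim procollagens before fibrils form changed in opposite directions. Adamts14 was at 4.64, 10.2 and 6.22 normalized counts in control libraries, 366, 122 and 297 in those labelled LATS1/2-KO and 272, 108 and 133 in those labelled LATS1/2-Sox9-KO (log2 fold change 5.19 ± 0.60 and 4.58 ± 0.59, edgeR adjusted p = 6.55e-05 and 0.00011). Adamts2 was at 40.6, 51.0 and 43.6 in control libraries and between 139.5 and 208 in the others (1.93 ± 0.27 and 2.04 ± 0.27, edgeR adjusted p = 0.000214 and 0.000131). Adamts3, the most counted of the 3 in controls, fell from 1312, 1394 and 683 to 372, 202 and 328 in LATS1/2-KO-labelled libraries and 150.4, 118 and 103 in those labelled LATS1/2-Sox9-KO (-1.91 ± 0.32 and -3.19 ± 0.34, edgeR adjusted p = 0.000641 and 3.02e-05). All 3 genes had control values that did not overlap with the rest.

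Adamts10, which binds fibrillin, and Adamts16, known from the gonad and kidney, showed the extremes of the remaining ADAMTS genes. Adamts10 fell from 1676, 1905 and 770.4 to 262, 67.8 and 174 and to 39.0, 63.8 and 56.5 (-3.11 ± 0.49 and -4.77 ± 0.54, edgeR adjusted p = 0.000448 and 4.61e-05). Adamts16 was nearly silent in control libraries, with 2 counts over the group, and had 299.9, 176 and 288 normalized counts in LATS1/2-KO-labelled libraries and 92.8, 97.7 and 94.7 in those labelled LATS1/2-Sox9-KO. The ratio to control was 320 (95% counting interval 88.4 to 2650) and 121 (33.2 to 1000). Adamts6 was called higher with both deletion labels, at 2.31 ± 0.53 and 3.57 ± 0.55 (edgeR adjusted p = 0.00403 and 0.000324), or 3.24 and 4.53 without control replicate 3. Adamts17 was called lower with both, at -2.27 ± 0.63 and -1.72 ± 0.62 (edgeR adjusted p = 0.0117 and 0.0353), but the calls were lost without control replicate 1 (-1.90 and -1.34, adjusted p = 0.0544 and 0.144), and the second also when control replicate 2 or LATS1/2-Sox9-KO replicate 1 or 2 was left out and with a replicate block (-1.77, edgeR adjusted p = 0.0706). Adamts7, Adamts12 and Adamts18 were not called in any comparison, and of these Adamts12 was at 314, 566 and 234 in control libraries and between 136 and 951 in the others. Adamts13, which cuts von Willebrand factor and was under the filter, was at 27.8, 39.7 and 0 in control libraries and at most 5.08 in the others.

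The ADAMTS-like proteins lack the protease domain and bind microfibrils. Adamtsl1 fell from 74.2, 112 and 67.2 normalized counts in control libraries to 26.1, 46.6 and 32.8 and to 7.43, 15.9 and 26.4 (-1.26 ± 0.48 and -2.34 ± 0.50, edgeR adjusted p = 0.0457 and 0.00263). The first of these calls was lost when any of 6 libraries was left out, with adjusted p up to 0.162. Adamtsl4 and Adamtsl5 were called higher in LATS1/2-Sox9-KO-labelled libraries against control, at 1.006 ± 0.18 and 3.54 ± 0.74 (edgeR adjusted p = 0.000849 and 0.00219). Adamtsl4 was at 1192, 852 and 948 in control libraries, 1124, 880.3 and 1156 in LATS1/2-KO-labelled libraries and 2315, 2008 and 1689 in those labelled LATS1/2-Sox9-KO, which lay above all others. Its fold lay at the 2-fold limit and was under it without control replicate 2 or 3 or LATS1/2-Sox9-KO replicate 1 (0.90, 0.98 and 0.91). Adamtsl5 was at 19.7, 1.13 and 11.2, then 33.1, 47.4 and 33.7, then 214, 91.7 and 71.0, and its change was 4.35 without control replicate 1 and 2.94 without LATS1/2-Sox9-KO replicate 1. Adamtsl3 was at 12.758, 2.268 and 0 normalized counts in control libraries, then 44.1, 36.4 and 12.768, then 16.7, 2.99 and 12.752. It was not called in any comparison (2.59 ± 1.04 and 1.09 ± 1.05 against control, edgeR adjusted p = 0.0568 and 0.402), and only LATS1/2-KO-labelled libraries did not overlap with control.

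**Figure D4:**
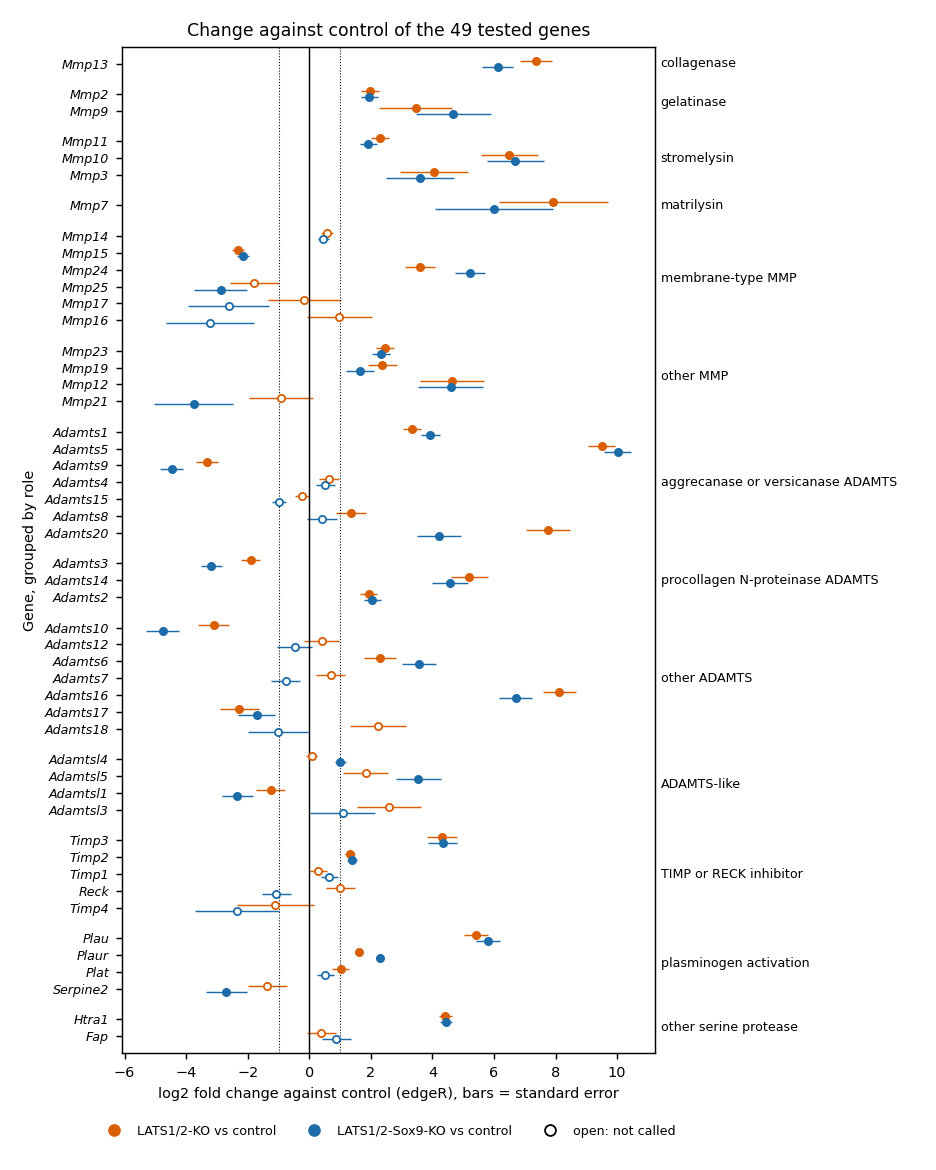
Fitted log2 fold change against control (horizontal axis) with its standard error (bars) for the 49 tested genes, grouped by role, for LATS1/2-KO-labelled libraries (orange) and LATS1/2-Sox9-KO (blue); filled points were called, open points were not, and dotted lines mark a 2-fold change. Adamts5 lies farthest to the right (9.49 and 10.01), and Adamts10 and Adamts9 farthest to the left among filled points (-4.77 and -4.47 in blue); fitted values of genes near 0 counts in controls, such as Mmp7 and Adamts16, depend on the fit and are not bounds.

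Of the 4 TIMP inhibitors, Timp3 and Timp2 rose and Timp1 did not pass the test. Timp3, which binds the matrix and also inhibits ADAM and ADAMTS enzymes (chr10:86300372-86349506, plus strand), had 8675, 4823 and 4554 normalized counts in control libraries, 48632, 199525 and 109533 in those labelled LATS1/2-KO and 123683, 129566 and 109622 in those labelled LATS1/2-Sox9-KO. The 6 later libraries all lay above the highest control library, and LATS1/2-KO replicate 1 stood below its partners. The log2 fold change was 4.31 ± 0.48 (edgeR adjusted p = 5.44e-05), or 3.71 without LATS1/2-KO replicate 2, and 4.33 ± 0.48 (edgeR adjusted p = 4.31e-05). Syn3 on the opposite strand shares 21.3% of the exon bases of Timp3, and the part of its reads was not tested. Timp2, which takes part in Mmp2 activation on Mmp14, was at 7848, 7825 and 5864 in control libraries, 14688, 18828 and 19925 in those labelled LATS1/2-KO and 21068, 17871 and 16804 in those labelled LATS1/2-Sox9-KO (1.31 ± 0.16 and 1.37 ± 0.16, edgeR adjusted p = 9.35e-05 and 5.89e-05). Timp1 was at 919.8, 837 and 463, then 1046, 819 and 858, then 1562, 854 and 1069, and the groups overlapped (0.29 ± 0.28 for LATS1/2-KO labels, edgeR adjusted p = 0.405). Timp4 had at most 23.2 normalized counts in any library and was not called.

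Reck, a membrane-anchored inhibitor of MMPs, was at 413, 423 and 297 in control libraries, 251, 1318 and 699.5 in those labelled LATS1/2-KO and 201, 189 and 149 in those labelled LATS1/2-Sox9-KO. Neither change against control was called (1.00 ± 0.47, edgeR adjusted p = 0.0936, and -1.07 ± 0.47, edgeR adjusted p = 0.0771), but 1 library decided the first: it was 1.42 and called (edgeR adjusted p = 0.00251) without LATS1/2-KO replicate 1 and 0.32 without LATS1/2-KO replicate 2. The second was called without either of those libraries (-1.06 and -1.05, edgeR adjusted p = 0.00711 and 0.0311) and by DESeq2 (-1.10, adjusted p = 0.0305). In Timp3, Reck and Adamts20, LATS1/2-KO replicate 2 was the highest and replicate 1 the lowest of their group. Adipocyte markers had the same order: the summed normalized counts of the 6 markers were 282, 186 and 297.5 in control libraries, 490.4, 3680 and 1755 in those labelled LATS1/2-KO and 86.3, 1259 and 1104 in those labelled LATS1/2-Sox9-KO, with Fabp4 as the most abundant gene, and 5 of 6 were called higher in LATS1/2-KO-labelled libraries (3 of 6 in those labelled LATS1/2-Sox9-KO), beside 17.1% and 17.8% of all tested genes. Adipoq, which defines adipocytes, was at 0, 0 and 3.73, then 2.01, 294 and 163, then 0.928, 97.7 and 42.8. The order of the LATS1/2-KO-labelled libraries was not particular to adipocyte markers, since the luminal marker Kit had it too (6728, 33146 and 19067). With the LATS1/2-Sox9-KO label the adipocyte sum was lowest in replicate 1, where Reck was highest and Adamts20 lowest of the group. The part of adipocytes in these values was not tested.

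Urokinase and its receptor rose, and a serpin that blocks it was lower with the Sox9 label. Plau, the urokinase (chr14:20836660-20843385, plus strand), had 993, 1339 and 2587 normalized counts in control libraries, 72431, 55739.7 and 80512 in those labelled LATS1/2-KO and 121057, 79177 and 76034 in those labelled LATS1/2-Sox9-KO. The rise was 5.41 ± 0.39 and 5.81 ± 0.40 on the log2 scale (edgeR adjusted p = 4.92e-06 and 2.57e-06), with no overlap between control libraries and the others. Plaur, its cell surface receptor, was at 3723, 3333 and 3949, then 10390.3, 11308 and 12146, then 17624, 18338 and 17560.3, so the 3 groups did not overlap (1.62 ± 0.10 and 2.28 ± 0.11, edgeR adjusted p = 3e-06 and 4.35e-07). Between the deletion labels Plaur differed by 0.66 ± 0.10 (edgeR adjusted p = 0.00849), which is under 2-fold and was not called, and Plau by 0.40 ± 0.32 (edgeR adjusted p = 0.509). Plat, the tissue activator, was at 586, 790.4 and 779 in control libraries and 2029.9, 1026 and 1316 in those labelled LATS1/2-KO. Its values with the LATS1/2-Sox9-KO label, 741, 1081 and 1272.5, overlapped with control and were not called (0.52 ± 0.27, edgeR adjusted p = 0.13). The change with the LATS1/2-KO label of 1.02 ± 0.28 (edgeR adjusted p = 0.0101) was under the 2-fold limit without control replicate 1 (0.89) or LATS1/2-KO replicate 1 (0.71) and with DESeq2 (0.99). Serpine2, a serpin that inhibits both activators and thrombin, was at 1283, 1001 and 468, then 581, 136 and 353, then 52.9, 108 and 261. It was called lower in LATS1/2-Sox9-KO-labelled libraries (-2.70 ± 0.67, edgeR adjusted p = 0.0058; -3.50 without LATS1/2-Sox9-KO replicate 3). In those labelled LATS1/2-KO it was not called (-1.37 ± 0.63, edgeR adjusted p = 0.0922), although it was without replicate 1 (-1.91, edgeR adjusted p = 0.0438) and by DESeq2 (-1.39, adjusted p = 0.035).

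Htra1, a secreted serine protease that cuts fibronectin and proteoglycans (chr7:130936111-130985660, plus strand), rose to nearly the same level in the 6 libraries with a deletion label. Its normalized counts were 724, 1072 and 1293 in control libraries, 23142, 22436 and 20661 in those labelled LATS1/2-KO and 22394, 22413 and 22676 in those labelled LATS1/2-Sox9-KO (4.42 ± 0.20 and 4.45 ± 0.20, edgeR adjusted p = 5.47e-07 and 4e-07). Those 6 ranged from 20661 to 23142. Fap, a fibroblast surface protease, was at 62.6, 65.8 and 132 in control libraries and between 51.1 and 228 in the others, and was not called. The summed normalized counts of 12 fibroblast markers were 2525, 4465 and 9673, then 10460, 2887 and 3513, then 3082, 4299 and 7842, so the groups overlapped. Their most abundant gene was Dcn in control libraries and Col3a1, Col1a1 or Dcn in the others, and 5 of 12 were called higher and 1 lower in LATS1/2-KO-labelled libraries (4 and 2 in those labelled LATS1/2-Sox9-KO), beside 17.1% and 17.5% (17.8% and 19.6%) of all tested genes. The part of fibroblasts in the values of Mmp2, Mmp3 and Fap was not tested.

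The comparison of LATS1/2-Sox9-KO-labelled libraries with those labelled LATS1/2-KO addresses what Sox9 deletion adds to LATS1/2 deletion, with the limit that Sox9 counts did not separate these groups. Adamts5, Timp3, Plau, Htra1, Mmp13 and Mmp10 were not called in it. The 5 called genes were Adamts20 (-3.53 ± 0.53, edgeR adjusted p = 0.00809), Adamts16 (-1.42 ± 0.33, edgeR adjusted p = 0.0329), Adamts3 (-1.28 ± 0.32, edgeR adjusted p = 0.0451) and Reck (-2.07 ± 0.48, edgeR adjusted p = 0.0352), which were lower with the Sox9 label, and Mmp24 (1.63 ± 0.39, edgeR adjusted p = 0.0393), which was higher. In each of the 5 the 3 libraries of 1 label lay on the same side of all 3 of the other. The same held for 14 of the 44 genes that were not called. The share over all tested genes is not given, so nothing is read from this separation. Adamts20 and Adamts16 lay between the control level and that of LATS1/2-KO-labelled libraries, while Adamts3 and Mmp24 went farther from control. The median log2 fold change of the 49 tested genes was -0.47, and that of all tested genes was -0.02. Adamts20, Adamts16 and Mmp24 had under 10 counts in every control library and passed the filter only through the libraries compared here. Without the 7 genes of this kind, 0 of 42 were called higher and 2 lower (Adamts3 and Reck), with a median of -0.42. These counts and medians are therefore not free of the filter.

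The support for these 5 calls was uneven. Adamts20 kept its call when each of the 9 libraries was left out, with a change between -3.97 and -2.94 (the latter without LATS1/2-KO replicate 2). Adamts16 lost it in 4 of the 9 cases, Adamts3, Reck and Mmp24 in 7, with adjusted p up to 0.123, 0.153, 0.119 and 0.129, and Reck was at -1.37 without LATS1/2-KO replicate 2. With the replicate number as a block, Adamts16, Adamts3 and Reck were no longer called (edgeR adjusted p = 0.058, 0.0507 and 0.0589). Adamts9 (-1.15 ± 0.34, edgeR adjusted p = 0.074) and Adamts10 (-1.66 ± 0.49, edgeR adjusted p = 0.0766) were not called but were by DESeq2 (adjusted p = 0.0101 and 0.00596), as was Mmp13 (adjusted p = 0.012). Adamts9 was also called without LATS1/2-Sox9-KO replicate 3 (-1.53) and Adamts10 without LATS1/2-KO replicate 2 (-2.01).

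**Figure D5:**
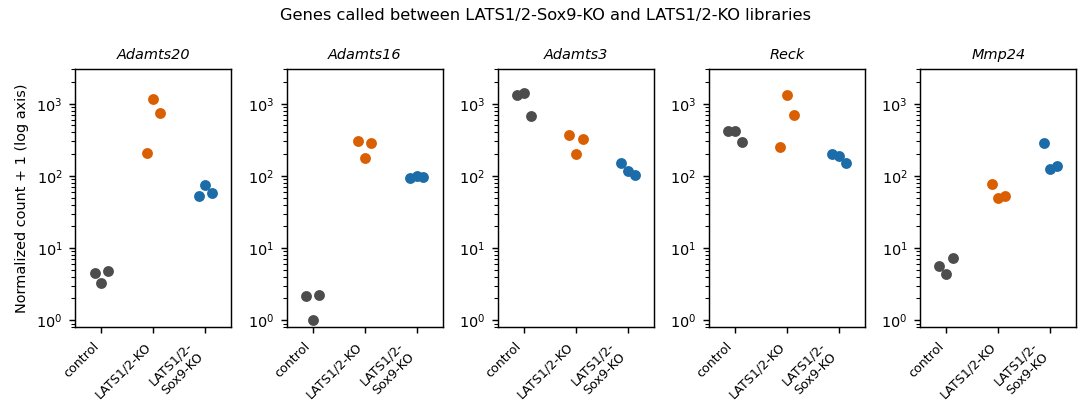
Normalized count + 1 (vertical log axis) of Adamts20, Adamts16, Adamts3, Reck and Mmp24 in each of the 3 libraries of each genotype (points). For Adamts20, Adamts16, Adamts3 and Reck the 3 libraries labelled LATS1/2-Sox9-KO lie below the 3 labelled LATS1/2-KO, and for Mmp24 above.

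Other genes of matrix proteolysis were read from lists with the same fit. Beside the counts below, 17.1% of all tested genes were called higher and 17.5% lower in LATS1/2-KO-labelled libraries. Of 32 tested proteases outside the set (ADAMs, cathepsins, membrane serine proteases and others), 8 were called higher and 9 lower in LATS1/2-KO-labelled libraries. Adam12, a sheddase of growth factor ligands, went from a mean of 6.11 to 3776 normalized counts (9.29 ± 0.74, edgeR adjusted p = 7.75e-06), Adam8 from 372 to 4045 (3.44 ± 0.16, edgeR adjusted p = 6.85e-07) and Ctss, a cathepsin of antigen-presenting cells, from 59.0 to 391 (2.72 ± 0.54, edgeR adjusted p = 0.00185). Adam28 and Adam33 fell, from 56.0 to 0.282 and from 272 to 41.1. Hpn, the membrane serine protease hepsin, fell from 3311 to 699 (-2.24 ± 0.18, edgeR adjusted p = 7.64e-06). Of 20 further inhibitors, 8 were called higher and 2 lower. Serpina3n rose from 2.75 to 1607 and Cst6 from 10.2 to 196, while Spock1 went from 315 to 0 counts. Papln, a papilin that inhibits procollagen N-proteinase, fell from 23156 to 2747 (-3.08 ± 0.20, edgeR adjusted p = 3.11e-06).

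Cofactors and receptors that hold or clear these proteases moved in both directions. Of 15 tested, 5 were called higher and 2 lower in LATS1/2-KO-labelled libraries. S100a10, which binds plasminogen at the cell surface, rose from 7946 to 51305 mean normalized counts (2.69 ± 0.14, edgeR adjusted p = 1.15e-06), and Cd44, which docks Mmp9 and Mmp7, from 6757 to 43166 (2.68 ± 0.33, edgeR adjusted p = 9.54e-05). Vldlr, which takes up complexes of urokinase, rose from 269 to 1383, and the syndecan Sdc4 fell from 81806 to 32176. Lrp1, the endocytic receptor that clears complexes of urokinase and MMPs, fell from 4676 to 642 (-2.86 ± 0.26, edgeR adjusted p = 1.7e-05). Of 17 tested proteoglycan and glycoprotein substrates, 8 were called higher and 3 lower. Versican, Vcan, the substrate of Adamts1, Adamts5, Adamts9 and Adamts20, rose from 89.7 to 4743 (5.72 ± 0.64, edgeR adjusted p = 5.14e-05), and fibronectin, Fn1, from 170 to 19289 (6.83 ± 0.70, edgeR adjusted p = 3.08e-05). Tenascin C, Tnc, rose from 1090 to 18228 (4.06 ± 0.63, edgeR adjusted p = 0.000395) and Vwf, the Adamts13 substrate, fell from 5133 to 162 (-4.99 ± 0.50, edgeR adjusted p = 2.67e-05). Decorin, Dcn, fell from 4360 to 923 (-2.24 ± 0.84, edgeR adjusted p = 0.0429).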

How the data were processed

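RNA-seq libraries of sorted EYFP+ mammary cells were analysed, 3 for each of 3 genotypes. Per the labels and the methods of the study, the authors aligned paired reads to mm10 with STAR 2.6.0c, checked them with FastQC 0.11.7 and made the deposited counts, whole fragments per gene, with featureCounts of Subread 1.6.2. The methods describe counting on the same strand, whereas the named kit, as usually supplied, does not mark strand. Whether reads of overlapping genes on opposite strands were separated was therefore not settled here.

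Of 55450 gene identifiers, 55104 had a symbol. Libraries differed from each other by more than sampling noise, and none was counted as a duplicate. Counts were tested with edgeR 4.0.16 in R 4.3.3: TMM factors, filterByExpr, a mean for each group over all 9 libraries and glmQLFTest, with Benjamini-Hochberg adjustment over 19357 genes. A call needed an adjusted p of at most 0.05 and a fold over 2. Normalized counts were scaled to the mean effective library size of 53824633. Levels between genes were divided by the length of merged GENCODE M21 exons, an annotation other than that used for counting. The fit was tested on simulated data with 200 changed genes. Counting intervals (95%, exact) and the floor of 3 counts cover counting error only. Promoter searches used Python 3.11.15 and sequences from RefSeq. Adamts5 and Adamts16 had no promoter in that table.

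The genes and lists were chosen with earlier results of these data known. Genes given with values in each library were, in each comparison, the 10 called genes with the largest rise and the 10 with the largest fall where the higher group averaged 50 or more normalized counts, the most abundant genes per length, the TIMP genes, Reck, and the 5 most counted genes that were never called. Other genes of the set were named after their values were seen, to account for each. Of each further list, the 3 largest changes in each direction were named, except 1 result that is not reported here. Alternatives were DESeq2 1.42.0, other scalings, other filters, a replicate block, fits of the compared groups alone, other thresholds and leaving out each library.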

Additional observations from a re-analysis of the deposited data

How the results depend on the processing

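Of 70 called gene comparisons of the set, 18 lost their call in at least 1 of 19 alternatives and 31 kept it in all 19. The other 21 kept it wherever they had a value but had none in at least 1 alternative, since at least 10 counts in every library left 32 called comparisons untested and the fit of the compared groups alone left 2. No direction reversed. Requiring at least 10 counts in every library, which removes genes near 0 in control libraries, left 28 of the 49 genes tested. Of these, 14 were called higher in LATS1/2-KO-labelled libraries (2308 of 14723 genes in all), where it had been 25 of 49, and 12 higher and 5 lower in LATS1/2-Sox9-KO-labelled libraries (2452 and 2860 in all), where it had been 25 and 9. Between the deletion labels the count of 4 lower genes was 9 with DESeq2 (all genes called lower went from 418 to 730 of 19357), 8 of 58 with no filter (563 of 31546 in all), 2 with at least 10 counts in every library, 1 with a replicate block, 0 with glmTreat (a test against the 2-fold limit itself) and between 1 and 5 with a library left out. The count of 1 higher gene was 0 with that filter, 0 with glmTreat, 3 with the adjusted p alone and between 0 and 2 with a library left out. The cause of the other changes was not tested. Without the most abundant member, the summed per-length levels were 45.54, 43.00 and 33.14 for MMPs and 29.25, 104.00 and 112.90 for TIMPs in control, LATS1/2-KO-labelled and LATS1/2-Sox9-KO-labelled libraries. The gene removed was Mmp15 and Timp2 in control and Mmp14 and Timp3 in the others, so these sums cover different genes and are not compared between genotypes. Libraries with the same number did not deviate together throughout (correlations of deviations from the group means between -0.0657 and 0.1695), so the numbers were not taken as pairs. Between libraries with different numbers the correlations lay between -0.1636 and 0.0641. For replicates 1, 2 and 3 of the 2 deletion labels they were 0.1049, 0.1695 and -0.0322, so a pairing between these labels was not settled. With the replicate block the counts higher and lower were 27 and 6, 1 and 1, and 25 and 8 for LATS1/2-KO against control, LATS1/2-Sox9-KO against LATS1/2-KO and LATS1/2-Sox9-KO against control labels. Calls near the 2-fold limit, such as those of Plat and Adamtsl4 against control, changed between alternatives. The part of the group size of 3 libraries in this was not tested.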

Other observations

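Some genes of the further lists differed between the deletion labels. In LATS1/2-Sox9-KO-labelled against LATS1/2-KO-labelled libraries, 2 of the 32 further proteases were called higher and 2 lower by edgeR, where 1.55% of all tested genes were called higher and 2.16% lower. The sheddase Adam8 was higher by 2.08 and Adam33 by 2.59 on the log2 scale, and the serine protease Htra3 and the neprilysin gene Mme fell by 1.71 and 1.52. Of the 20 further inhibitors 0 were called higher and 1 lower, Papln, which fell by 1.16. The syndecan Sdc1 was higher by 1.33, while Pcolce, an enhancer of procollagen C-proteinase, fell by 1.38 and the elastin gene Eln by 1.79.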
